A study of Mus musculus with 24 samples.

Results

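The Hippo effectors and the Tead factors were followed as 10 genes, selected by symbol, in poly(A) RNA-seq of mouse pluripotent cells: Yap1, Wwtr1, Tead1, Tead2, Tead3, Tead4, Vgll3, Vgll4, Amotl2 and Lats2. All 10 were listed and tested in both deposited tables, among 23095 listed genes in the table of the J1 line and 25476 in the table of the tet-off lines. The 24 libraries form 12 groups of 2 replicates. J1 is a wild-type mouse embryonic stem cell (ESC) line. Its ESCs grew in serum, LIF and 2i (3 µM CHIR99021 and 1 µM PD0325901). J1 D-EPSCs, extended pluripotent stem cells, grew in N2B27 with knockout serum replacement, LIF, 3 µM CHIR99021, 2 µM DiM (dimethindene maleate) and 2 µM MiH (minocycline hydrochloride). L-EPSCs, expanded potential stem cells, of J1 and of the tet-off lines grew in knockout serum replacement with LIF, 3 µM CHIR99021, 1 µM PD0325901, 0.3 µM A-419259, 5 µM XAV939, 4 µM JNK inhibitor VIII and 10 µM SB203580. The labels place J1 ESCs and L-EPSCs on mouse embryonic fibroblast feeders or on gelatin. The published methods add that EPSCs of both kinds were kept off feeders for several passages ahead of sequencing, and which substrate each ESC library had is not stated. The lines ZHBTc4 (Oct4), 2TS22C (Sox2) and NgcKO (Nanog) are labelled Tet-off knockin and conditional knockout, and doxycycline (Dox) was added to deplete the factor. Per the published description of the lines, the endogenous copies are deleted in all 3 and a transgene that Dox shuts off supplies the factor. The labels give neither the dose and duration of Dox nor the medium of the tet-off ESCs. A dose and a day of Dox are published for the morphology and protein of these lines, and were not found stated for the RNA. Each line was sequenced as ESCs, as L-EPSCs without Dox and as L-EPSCs with Dox. Each of these lines is a single line, so a difference between lines cannot be told apart from a difference between their factors.

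The Hippo pathway is a kinase cascade in which the kinases Stk3 and Stk4 activate Lats1 and Lats2, and these phosphorylate the coactivators Yap1 and Wwtr1 (TAZ) and keep them out of the nucleus. Unphosphorylated Yap1 and Wwtr1 bind the DNA-binding factors Tead1 to Tead4 and raise target genes such as Ccn2 and Ccn1. Vgll proteins compete for or share the Tead surface, angiomotins such as Amotl2 hold Yap1 at junctions, and in the early mouse embryo Tead4 with nuclear Yap1 turns on trophectoderm genes. XAV939 inhibits tankyrases, enzymes that mark angiomotins for degradation. RNA levels do not report phosphorylation or localisation of Yap1 or Wwtr1.

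Depth ran from 10807631 to 15069899 reads on genes per library. Values are normalized counts, that is reads divided by a size factor of the library, and the values of each pair are those of replicates 1 and 2. A gene was called when its adjusted p in limma was below 0.05 and its log2 fold change exceeded 0.6 in size, or 1 for Dox. Fold changes were taken after adding 1 to the normalized count, which understates changes of low genes. At 2 against 2, the smallest p that exact two-sided permutation allows for 1 gene is 0.333. Nothing states that the replicates were separate cultures, so the p-values measure the spread between these libraries, and these replicates differed by more than counting error, with a mean chi-square of 1.67 to 2.65 per group where counting alone gives 1. The tables were normalized separately, and levels were tested within a table only. In bulk RNA, fewer cells of a kind and less RNA per cell cannot be told apart.

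The targeted genes were checked first. In the Oct4 line, Pou5f1 had 6420.1 and 6316 without Dox and 162 and 184 with it. In the Sox2 line, Sox2 had 4966 and 4701 without Dox and 47.0 and 53.1 with it. In the Nanog line, Nanog had 9119 and 8847 without Dox and 3166 and 3112 with it. Each targeted gene was lower in both Dox libraries than in both libraries without Dox, and Nanog kept the highest level of the 3 under Dox. The log2 fold changes were −5.19 (standard error 0.049, adjusted p 7.3e-20 in limma), −6.57 (standard error 0.055, adjusted p 2.4e-20 in limma) and −1.52 (standard error 0.043, adjusted p 5.8e-13 in limma). The sum of 10 pluripotency markers in J1 was 65238 and 65737 in ESCs, 47893 and 47359.5 under the D-EPSC label and 56903 and 56472 under the L-EPSC label. All 10 pluripotency markers were detected in every library, with summed levels of 81394 and 80719 in ESCs of the Oct4 line, 50566 and 49631 in its L-EPSCs and 5872 and 5969 with Dox. In L-EPSCs of the Sox2 line the same sum was 55169 and 54713 without Dox and 10394 and 9990.1 with it. In those of the Nanog line it was 59808 and 58775 without Dox and 35528 and 34082 with it. The Dox libraries of the Oct4 and Sox2 lines carry the EPSC label with low pluripotency markers.

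The J1 libraries labelled L-EPSC went against their medium in genes chosen after their values were seen. PD0325901 blocks MEK, upstream of ERK, and Dusp6, Spry4, Etv4 and Egr1 are ERK response genes. Dusp6 had 73.7 and 80.2 in ESCs, 763 and 742 in libraries labelled D-EPSC and 1210.0 and 1168 in those labelled L-EPSC. Etv4 had 302 and 357, 391 and 352 and 2977 and 2948 in the same order. The libraries labelled with the PD0325901 medium L-EPSC were highest in both genes. Axin2, a target of the Wnt pathway that tankyrase inhibitors such as XAV939 dampen, had 767 and 706 in ESCs, 109 and 88.1 under the D-EPSC label and 708 and 714 under the L-EPSC label. In the Oct4 line Dusp6 went down from 741 and 697 in ESCs to 63.9 and 79.9 in L-EPSCs. The labels were kept as given, whether libraries were exchanged was not tested. Protein was measured in SILAC cultures of these states, but those data are not in the tables used, and every J1 direction below is that of the libraries as labelled.

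Fibroblast genes were abundant in J1. The summed level of the 11 fibroblast markers was 101904 and 104334 in ESCs, 61729 and 61851 in libraries labelled D-EPSC and 21325 and 21929 in those labelled L-EPSC, and none of the 11 was at 0. Col1a1, the most abundant, had 44565 and 46016, 19651 and 20021 and 7277 and 7721. The ESC libraries were highest in Col1a1 and the libraries labelled L-EPSC lowest, without overlap. Of the 11 markers, 3 were called higher and 5 lower under the D-EPSC label than in ESCs, and 0 higher and 9 lower under the L-EPSC label. Between the labels, L-EPSC against D-EPSC, 0 were higher and 10 lower, with a median log2 fold change of −1.37. Over all genes, 20.7%, 20.3% and 13.4% were called in either direction in these comparisons. In the tet-off table the 10 listed markers summed to between 382 and 1179, with Lum, Twist2 and Col3a1 at 0 in many libraries. Fibroblasts express Yap1, Wwtr1 and many of their targets. Feeder-free passages before sequencing are described for EPSCs and not for ESCs in the sources used. The EPSC libraries held these markers all the same, their source was not tested, and the part of these markers in the J1 results was not tested.

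In J1, 4 of the 10 genes were called lower and 0 higher under the D-EPSC label than in ESCs, where 20.7% of all 21533 genes tested were called in either direction. Under the L-EPSC label, 6 were called lower and 0 higher, against 20.3% of all genes. Between the labels, L-EPSC against D-EPSC, 1 was called higher and 2 lower, against 13.4%. The median log2 fold change of the 10 was −0.24, −0.78 and −0.26, beside 0.013, 0 and 0 over all genes. Wwtr1, Tead4, Vgll4 and Amotl2 were called lower under both labels. Both comparisons use the same ESC libraries.

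Among the coactivators, Yap1 had 2649 and 2622 in ESCs, 2606 and 2675 under the D-EPSC label and 2261 and 2298 under the L-EPSC label, and the J1 values below follow this order. The ESC and D-EPSC values overlapped and the L-EPSC pair lay below, at a log2 change of −0.21 (standard error 0.031, adjusted p 0.0011 in limma), inside the threshold. Wwtr1 had 886 and 971, 455 and 415 and 539.7 and 589.6. ESCs were highest without overlap, and the log2 fold changes were −1.09 (standard error 0.078, adjusted p 2.1e-05 in limma) and −0.72 (standard error 0.078, adjusted p 2e-04 in limma).

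Tead4, the Tead factor of the trophectoderm, showed the largest change of the 10 under the D-EPSC label. Under the L-EPSC label the values of Vgll3 and Tead4 were close, with −1.90 and −1.86 on the log2 scale. With single libraries left out they ranged from −2.08 to −1.72 and from −1.95 to −1.77, so their order was not fixed. Tead4 had 734 and 753 in ESCs, 60.2 and 73.4 under the D-EPSC label and 218 and 192 under the L-EPSC label. The 3 groups did not overlap, and the pair labelled D-EPSC was lowest. The log2 fold changes against ESCs were −3.46 (standard error 0.12, adjusted p 5.4e-07 in limma) and −1.86 (standard error 0.12, adjusted p 1.4e-05 in limma), and Tead4 was called higher under the L-EPSC than under the D-EPSC label, by 1.61 (standard error 0.12, adjusted p 6.1e-05 in limma). Over all genes, 20.7% were called in either direction under the D-EPSC label, 20.3% under the L-EPSC label and 13.4% between the labels. Of the 12 trophoblast markers, 0 were called higher and 6 lower under the D-EPSC label than in ESCs (median −1.60), 3 and 4 under the L-EPSC label (−1.26), and 8 and 1 between the labels (1.21). Their summed level was 1677 and 1689 in ESCs, 243 and 249 under the D-EPSC label and 904 and 939 under the L-EPSC label. Elf5, Hand1 or Cdx2 were at 0 in some libraries under these labels, Tfap2a was the most abundant in ESCs and under the D-EPSC label, and Eomes under the L-EPSC label. Tfap2a had 628 and 640.0, 70.5 and 58.7 and 104 and 149, and Eomes 146 and 124, 31.7 and 26.4 and 453 and 446. Of the 8 primitive endoderm markers, 3 were called higher and 1 lower under the D-EPSC label (median −0.017), and 4 and 0 under the L-EPSC label (1.64). Between the labels, L-EPSC against D-EPSC, 4 were higher and 1 lower (1.09). They summed to 966 and 993, 1822 and 1858 and 1553 and 1649, with Lama1 the most abundant in ESCs and under the L-EPSC label and Pdgfra under the D-EPSC label. Sox7, Sox17 or Foxa2 were at 0 in some of these libraries. The part of these markers in the Tead4 result was not tested. Tead3 had 141 and 142, 153 and 170.3 and 90.5 and 67.8. It was lowest under the L-EPSC label, at a log2 change of −0.85 (standard error 0.17, adjusted p 0.0049 in limma) against ESCs and −1.03 (standard error 0.17, adjusted p 0.0026 in limma) against the D-EPSC label. Both calls were lost when single libraries were left out. Against ESCs the value was −0.85 (adjusted p 0.094 in limma) without ESC replicate 1, −0.84 (adjusted p 0.095 in limma) without ESC replicate 2 and −0.85 (adjusted p 0.051 in limma) in a fit of only these groups. Against the D-EPSC label it was −1.11 (adjusted p 0.065 in limma) without D-EPSC replicate 1, −0.96 (adjusted p 0.084 in limma) without D-EPSC replicate 2 and −1.03 (adjusted p 0.051 in limma) in a fit of only these groups. Tead1 and Tead2 stayed inside the threshold. Tead1 had 1849 and 1843, 1604 and 1568 and 1276 and 1295, and Tead2 had 2176 and 2229.9, 2261 and 2247 and 2538 and 2690.4. Tead1 was highest in ESCs and Tead2 under the L-EPSC label.

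Vgll3 and Vgll4 are Tead cofactors, and Vgll4 is known to oppose Yap1 on Tead. Vgll3 had 290.3 and 291 in ESCs, 250.2 and 235 under the D-EPSC label and 67.9 and 87.3 under the L-EPSC label. Only the L-EPSC pair was called lower than ESCs, at a log2 change of −1.90 (standard error 0.14, adjusted p 2.2e-05 in limma), and it was also lower than the D-EPSC pair, at a log2 change of −1.64 (standard error 0.14, adjusted p 9.3e-05 in limma). Vgll4 had 188 and 233, 103 and 113 and 98.7 and 98.8. Both EPSC pairs lay below both ESC libraries, at a log2 change of −0.95 (standard error 0.15, adjusted p 0.0014 in limma) and −1.08 (standard error 0.15, adjusted p 0.00072 in limma). Amotl2, an angiomotin that is also a Yap1 target, had 1723 and 1716, 882 and 912 and 625 and 580.4. It fell without overlap, with −0.94 (standard error 0.052, adjusted p 5.1e-06 in limma) and −1.51 (standard error 0.052, adjusted p 4.7e-07 in limma). Between the labels it stayed inside the threshold at −0.57, and passed it at −0.63 without L-EPSC replicate 1. Lats2, the kinase and also a Yap1 target, had 295 and 266, 276 and 251 and 207 and 187. Its ESC and D-EPSC values overlapped, and the lower L-EPSC pair stayed inside the threshold at −0.51 (standard error 0.11, adjusted p 0.0061 in limma).

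**Figure D1:**
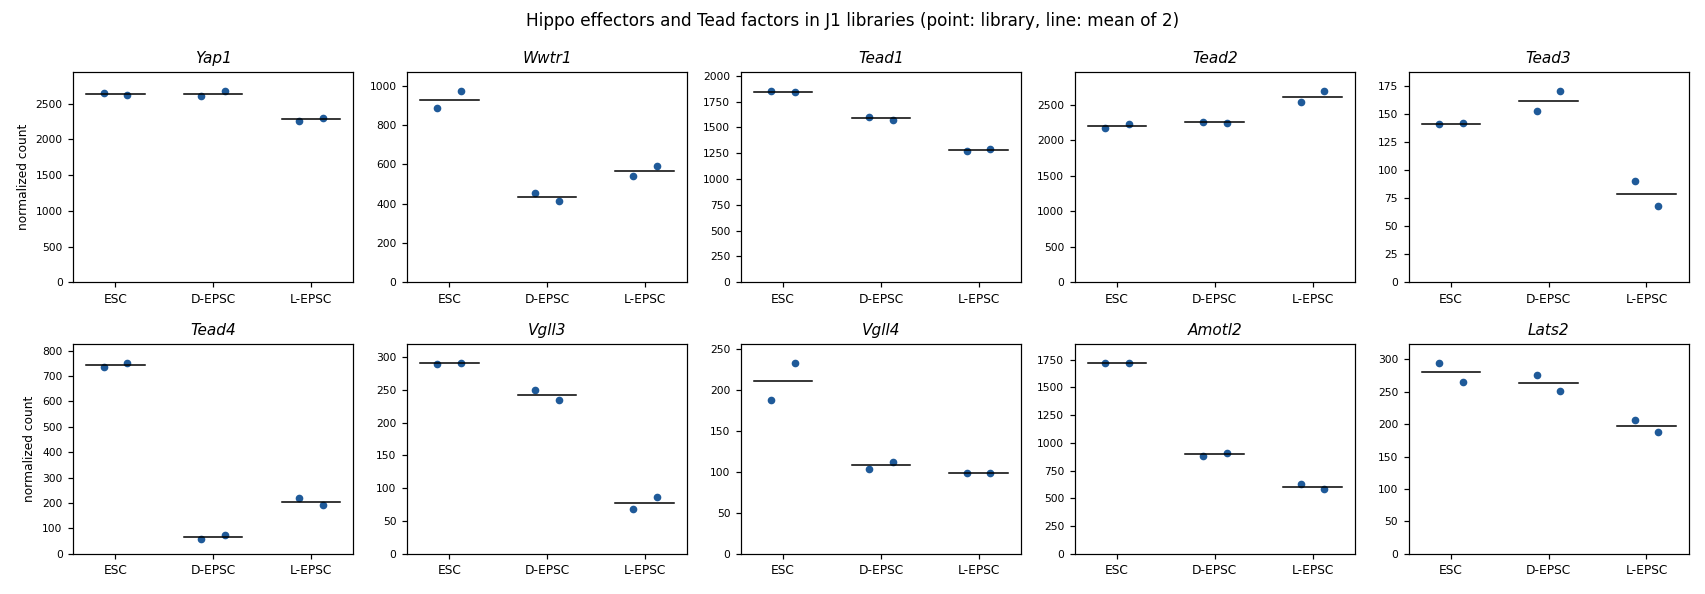
Normalized counts of the 10 genes in the 6 J1 libraries, with ESC, D-EPSC and L-EPSC as labelled on the x axis; points are libraries and lines are means of 2. Tead4 was highest in ESCs and lowest under the D-EPSC label, and each y axis starts at 0.

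The rest of the pathway in J1 moved in part. Against ESCs, 20.7% of all genes were called in either direction under the D-EPSC label and 20.3% under the L-EPSC label. Of the 20 listed YAP/TAZ targets, 3 were called higher and 8 lower under the D-EPSC label, with a median of −0.39. Under the L-EPSC label the counts were 3 higher against 9 lower, and the median −0.66. Ccn2, a matricellular protein, had 869.9 and 836 in ESCs, 379.9 and 358 under the D-EPSC label and 341 and 346 under the L-EPSC label. Ccn1 had 812 and 879.8, 528 and 469.9 and 401 and 438. Both were highest in ESCs without overlap, as was Col1a1. Other fibroblast markers, Dcn, Thy1 and Twist2, were highest under the D-EPSC label. Ccdc80, a secreted matrix protein, had log2 fold changes of −2.38 and −3.58, and Tgfb2 had −2.20 and −2.77. Ccdc80 was the most abundant of the 20 targets in J1 ESCs, with 3969 and 4015, and was at 0 in many tet-off libraries. Gadd45a and Fjx1 were called higher under both labels, with 1.48 and 1.27 for Gadd45a and 1.41 and 2.26 for Fjx1. The fibroblast markers had medians of −0.067 under the D-EPSC label and −1.43 under the L-EPSC label, and their part in the target changes was not tested. Of the 6 kinase core genes 0 were called in any J1 comparison by limma, edgeR or DESeq2. Their medians were −0.18 under the D-EPSC label and −0.23 under the L-EPSC label against ESCs, and 0.037 between the labels. At an unadjusted limma p under 0.05, 3 passed under the D-EPSC label and 4 under the L-EPSC label against ESCs, and 1 between the labels. Of the 10 upstream genes, 1 was higher and 3 lower under the D-EPSC label, and 1 and 4 under the L-EPSC label. Frmd6 was lower under both, with −1.29 and −1.50. Of the 8 YAP regulators, 2 were called higher under the D-EPSC label (Ptpn14 at 0.80 and Amot at 0.64) and 0 in either direction under the L-EPSC label, by limma, edgeR or DESeq2, with 6 at an unadjusted limma p under 0.05.

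**Figure D2:**
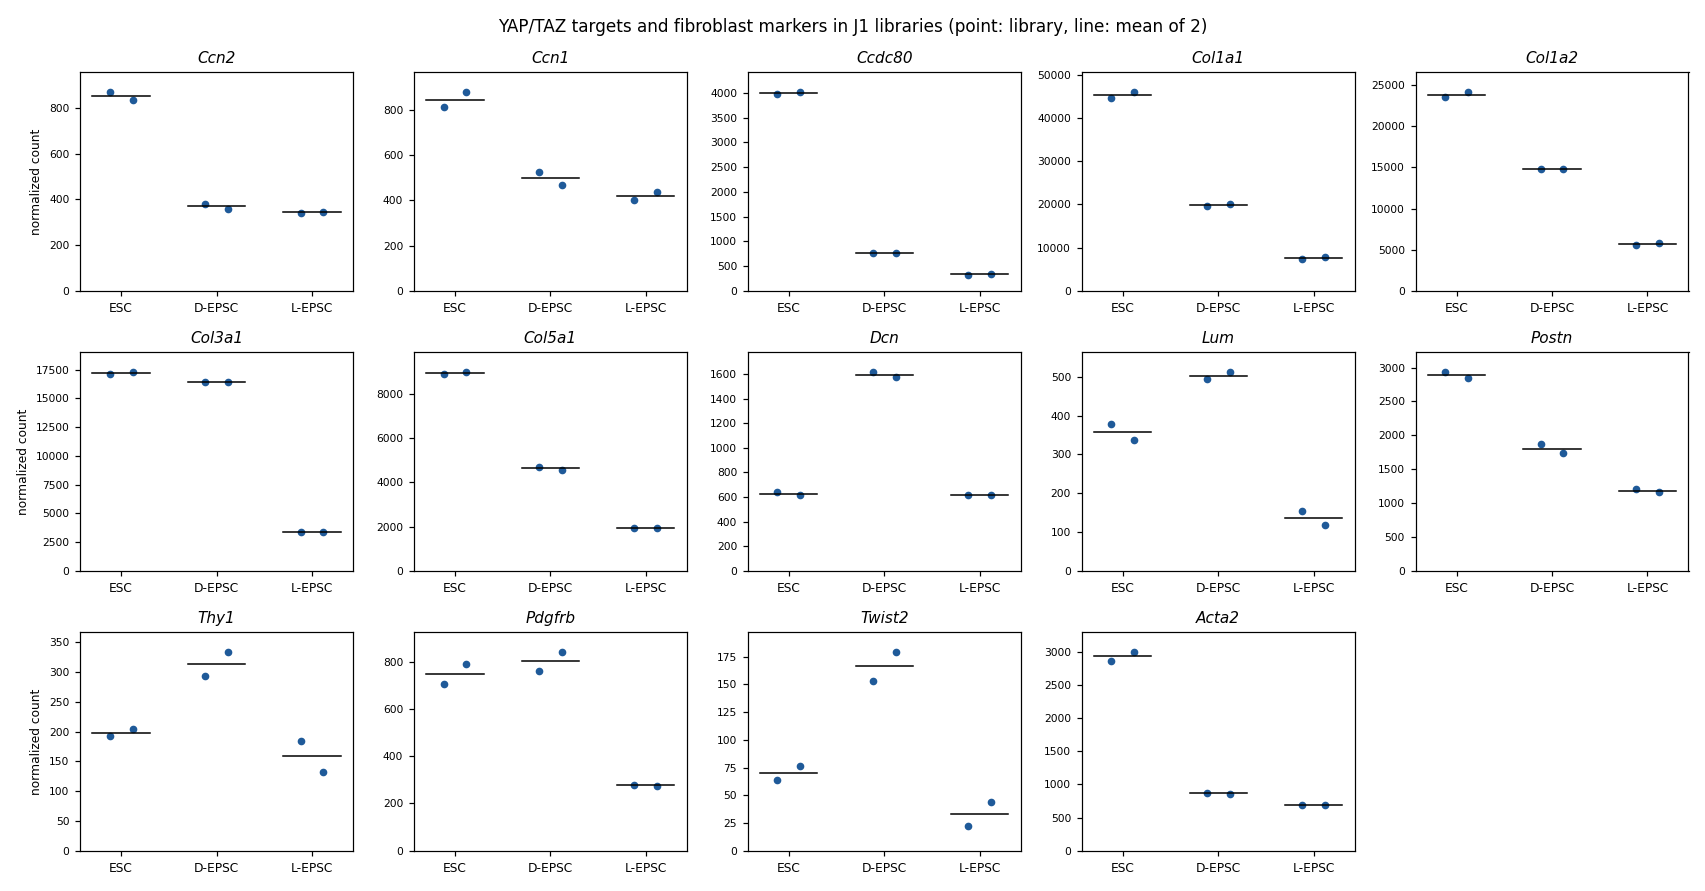
Normalized counts of 3 YAP/TAZ targets and the 11 fibroblast markers in the 6 J1 libraries as labelled; points are libraries, lines are means of 2 and each y axis starts at 0. Ccn2, Ccn1 and Ccdc80 were highest in ESCs, as were Col1a1, Col3a1 and Col5a1, while Dcn, Thy1 and Twist2 were highest under the D-EPSC label.

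In the tet-off lines, the change from ESCs to L-EPSCs called 3 of the 10 higher and 0 lower in the Oct4 line, against 28.4% of all 24007 genes tested. In the Sox2 line 1 was higher and 2 lower, against 19.6%, and in the Nanog line 2 were higher and 4 lower, against 26.9%. The medians of the 10 were 0.33, −0.084 and −0.15, with 0 over all genes in each line. Wwtr1 was called higher in all 3 lines, and the difference in sign from J1, in a separately normalized table, was not tested. It had 507 and 550.2 in ESCs against 1224 and 1191 in L-EPSCs of the Oct4 line, 677 and 674 in ESCs against 1167 and 1128 in L-EPSCs of the Sox2 line and 544 and 502 in ESCs against 854 and 868 in L-EPSCs of the Nanog line. No L-EPSC library overlapped with ESCs of its line, and the log2 fold changes were 1.19 (standard error 0.053, adjusted p 1.6e-11 in limma), 0.76 (standard error 0.053, adjusted p 8.5e-09 in limma) and 0.72 (standard error 0.053, adjusted p 9.2e-09 in limma). Yap1 stayed inside the threshold in each line, with −0.043, 0.03 and −0.32.

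Calls of the Tead factors were not the same in each line. Tead1 had 3353 and 3399.6 in ESCs against 1746 and 1687 in L-EPSCs of the Sox2 line and 1512 and 1474 in ESCs against 919 and 989 in L-EPSCs of the Nanog line. It was lower in L-EPSCs of both lines, at a log2 change of −0.98 (standard error 0.052, adjusted p 3.3e-10 in limma) and −0.65 (standard error 0.052, adjusted p 2.6e-08 in limma), and ESCs of the Sox2 line held its highest level of the table. In the Nanog line the value was inside the threshold at −0.59 without L-EPSC replicate 1, and at −0.43 with median centring. Tead2 was called higher in the Nanog line, with 1829 and 1748 in ESCs against 3128 and 2975 in L-EPSCs and 0.77 (standard error 0.047, adjusted p 9e-10 in limma). Tead3 was called higher in the Oct4 line, with 137 and 144 in ESCs against 248 and 311 in L-EPSCs and 0.98 (standard error 0.11, adjusted p 1.4e-06 in limma). Tead4 was called lower in the Nanog line, with 599 and 667 in ESCs against 386 and 329 in L-EPSCs and −0.83 (standard error 0.11, adjusted p 9.5e-06 in limma). In the Oct4 and Sox2 lines Tead4 was also lower, at −0.26 and −0.44, and Tead2 also higher, at 0.26 and 0.31, all inside the threshold. The Tead4 values of the Oct4 line overlapped. Also inside the threshold, Tead1 had −0.22 in the Oct4 line, and Tead3 had −0.20 and 0.020 in the Sox2 and Nanog lines.

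Vgll3 had 115 and 124 in ESCs against 18.4 and 21.9 in L-EPSCs of the Sox2 line and 47.0 and 37.0 in ESCs against 5.33 and 8.16 in L-EPSCs of the Nanog line. It was lower in L-EPSCs of both, at a log2 change of −2.51 (standard error 0.26, adjusted p 7.8e-07 in limma) and −2.49 (standard error 0.26, adjusted p 5.5e-07 in limma), and its values overlapped in the Oct4 line. The Nanog-line L-EPSC values rest on 5 and 8 reads. Amotl2 was called higher in the Oct4 line only, with 920.2 and 991 in ESCs against 2182 and 2276 in L-EPSCs and 1.22 (standard error 0.070, adjusted p 3.4e-10 in limma). Lats2 was called lower in the Nanog line, with 92.0 and 98.7 in ESCs against 13.8 and 21.4 in L-EPSCs and −2.40 (standard error 0.21, adjusted p 6.8e-08 in limma), where the L-EPSC values rest on 13 and 21 reads. In the Oct4 line Lats2 was inside the threshold at 0.40, and past it at 0.62 with median centring. With single libraries left out this value ranged from 0.17 to 0.62. Vgll4 was called in none of the 3 lines. Among the 20 YAP/TAZ targets, 5 were higher and 6 lower in the Oct4 line, 1 and 7 in the Sox2 line, and 4 and 7 in the Nanog line, with medians of −0.24, −0.46 and −0.20. For these targets and the lists below, 28.4%, 19.6% and 26.9% of all genes were called in either direction in these lines. Ankrd1, Tgfb2, Foxf2, Rbms3, Ccdc80 or Fjx1 were at 0 in some tet-off libraries. Ccn1 was higher in each line, with 2.94, 1.42 and 0.78. Ccn2 had 147 and 158 in ESCs against 834 and 886 in L-EPSCs of the Oct4 line, higher in L-EPSCs by 2.49 (standard error 0.098, adjusted p 3.6e-12 in limma). It stayed inside the threshold in the other lines, at 0.45 and 0.54. Axl, a receptor tyrosine kinase, was lower in all 3, with −1.89, −1.67 and −1.71. Of the kinase core, Stk3 was higher in the Oct4 line at 0.88 and Mob1a in the Nanog line at 1.44, and 0 of the 6 were called in the Sox2 line by limma, edgeR or DESeq2, with 3 at an unadjusted limma p under 0.05. Of the 10 upstream genes, the numbers called higher and lower were 2 and 2 in the Oct4 line, 1 and 1 in the Sox2 line, and 3 and 1 in the Nanog line, with medians of −0.0014, −0.25 and 0.39. Wwc2, an upstream scaffold protein, was higher in all 3 lines, with 1.07, 0.64 and 0.70, and Nf2, an upstream activator of the kinases, was lower in the Oct4 and Sox2 lines, with −0.62 and −0.90. Of the 8 YAP regulators they were 1 and 1 in the Oct4 line, 0 and 2 in the Sox2 line, and 2 and 2 in the Nanog line, with medians of −0.089, −0.29 and 0.32. Ajuba, a LIM protein that restrains Lats kinases, was lower in all 3, with −0.83, −0.73 and −1.49.

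Markers of other fates also changed between ESCs and L-EPSCs of these lines. Over all genes, 28.4%, 19.6% and 26.9% were called in either direction in the Oct4, Sox2 and Nanog lines. Of the 12 trophoblast markers, 7 were called higher and 0 lower in the Oct4 line, 0 and 4 in the Sox2 line, and 5 and 1 in the Nanog line, with medians of 1.00, −0.75 and 0.49. Their summed level was 2271 and 2142 in ESCs against 6921 and 6628 in L-EPSCs of the Oct4 line, 6877 and 6804 in ESCs against 2862 and 2913 in L-EPSCs of the Sox2 line and 799.9 and 846 in ESCs against 947 and 906 in L-EPSCs of the Nanog line. Krt8 was the most abundant in ESCs of each line and in L-EPSCs of the Sox2 line, Krt19 in L-EPSCs of the Oct4 line and Krt18 in those of the Nanog line. Of the 8 primitive endoderm markers, 5 were called higher and 1 lower in the Oct4 line, 2 and 5 in the Sox2 line, and 3 and 2 in the Nanog line, with medians of 1.47, −1.04 and 0.58. Their summed level was 2429 and 2467 in ESCs against 2648 and 2502 in L-EPSCs of the Oct4 line, 4109 and 4189 in ESCs against 2546 and 2500.1 in L-EPSCs of the Sox2 line and 2523 and 2509 in ESCs against 963 and 938 in L-EPSCs of the Nanog line. Lama1 was the most abundant. Elf5 was at 0 in replicate 2 of Nanog-line ESCs and L-EPSCs, and Foxa2 in ESCs of the Oct4 line and L-EPSCs of the Sox2 line. The part of these markers in the changes of the 10 genes was not tested.

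Dox in L-EPSCs called 2 of the 10 higher and 1 lower in the Oct4 line, against 19.3% of all genes. In the Sox2 line 3 were higher and 0 lower, against 15.1%, and in the Nanog line 2 were higher and 0 lower, against 5.39%. The medians of the 10 were 0.22, 0.59 and 0.17, with 0 over all genes in each line. Vgll3 had 71.0 and 50.3 without Dox and 1132 and 1259 with it in the Oct4 line, 18.4 and 21.9 without Dox and 533 and 598 with it in the Sox2 line and 5.33 and 8.16 without Dox and 48.3 and 34.8 with it in the Nanog line. Within each line both Dox libraries lay above both without Dox, and the log2 fold changes were 4.30 (standard error 0.26, adjusted p 5.7e-10 in limma), 4.75 (standard error 0.26, adjusted p 2.7e-10 in limma) and 2.47 (standard error 0.26, adjusted p 2.2e-06 in limma). Vgll3 with Dox in the Nanog line overlapped with ESCs of that line, which had 47.0 and 37.0. A fit of only the Nanog-line groups compared gave 2.47 (adjusted p 0.086 in limma).

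Tead3 had 248 and 311 without Dox and 1401 and 1409.7 with it in the Oct4 line and 253 and 227 without Dox and 624 and 688 with it in the Sox2 line. It rose in both, by 2.33 (standard error 0.11, adjusted p 3e-11 in limma) and 1.45 (standard error 0.11, adjusted p 1.7e-08 in limma), while in the Nanog line its 0.37 did not reach the threshold. Tead1 had 1704 and 1767 without Dox and 666 and 587 with it in the Oct4 line. It fell there, at a log2 change of −1.47 (standard error 0.052, adjusted p 7.5e-13 in limma), and it stayed inside the threshold in the Sox2 line at −0.20 and in the Nanog line at 0.54. Tead2 and Tead4 were called in none of the 3 lines, with −0.19, 0.11 and −0.13 for Tead2 and −0.31, 0.69 and −0.23 for Tead4. In the Sox2 line Tead4 had 418 and 389 without Dox and 610 and 698 with it, without overlap. That rise (adjusted p 7e-05 in limma) was inside the threshold of 1 and past the other threshold of 0.6. Yap1 was higher with Dox in each line but inside the threshold of 1, with 0.58, 0.48 and 0.23, and its Oct4-line values were 2269.9 and 2371 without Dox and 3492 and 3437 with it. Wwtr1 stayed inside the threshold, with 0.072, 0.34 and −0.40. Amotl2 rose in the Sox2 line, with 1531 and 1341 without Dox and 2881 and 3007 with it and 1.04 (standard error 0.070, adjusted p 3.6e-09 in limma). Without no-Dox replicate 2 it was inside the threshold, at 0.94. Vgll4 had 175 and 152 without Dox and 312 and 334 with it in the Sox2 line and 175 and 194 without Dox and 312 and 343 with it in the Oct4 line. Both rises were just inside the threshold, at 0.98 and 0.83. They passed it with median centring, at 1.02 and 1.01, and in the Sox2 line also without no-Dox replicate 1 at 1.09 and without Dox replicate 1 at 1.03. Lats2 rose in the Nanog line, with 13.8 and 21.4 without Dox and 142 and 129 with it and 2.91 (standard error 0.21, adjusted p 3.1e-08 in limma). It was not called in the Oct4 and Sox2 lines, at −0.13 and −0.39. With single libraries left out, these values ranged from −0.30 to 0.048 and from −0.55 to −0.24.

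The trophoblast markers rose in sum with Dox in each line. Their 12 genes summed to 6921 and 6628 without Dox and 45302 and 44567 with it in the Oct4 line, to 2862 and 2913 and 18988 and 18828 in the Sox2 line, and to 947 and 906 and 1446 and 1403 in the Nanog line. Krt19 was the most abundant with Dox in the Oct4 and Sox2 lines, and no marker was at 0 in the Dox libraries. Of the 12, 8, 10 and 2 were called higher in the Oct4, Sox2 and Nanog lines and none lower, where 19.3%, 15.1% and 5.39% of all genes were called in either direction. Of the 8 primitive endoderm markers, 1 was called higher and 3 lower in the Oct4 line, 2 and 3 in the Sox2 line, and 0 and 1 in the Nanog line, with medians of −0.18, −0.17 and −0.24. With Dox they summed to 1573 and 1479, 1239.9 and 1259 and 875 and 860.0 in these lines. Dab2 was the most abundant with Dox in the Oct4 and Sox2 lines and Lama1 in the Nanog line, with Sox17 at 0 in Sox2-line replicate 2 and Sox7 in Nanog-line replicate 1. The part of both lists in the Tead3 and Vgll3 results was not tested.

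The YAP/TAZ targets did not move one way with Dox. Of 20, 3 were higher and 5 lower in the Oct4 line, 3 and 5 in the Sox2 line, and 1 and 2 in the Nanog line, with medians of 0.12, 0.08 and 0.028. Over all genes, 19.3%, 15.1% and 5.39% were called in either direction in these lines. Ccn2 had 834 and 886 without Dox and 40.3 and 42.2 with it in the Oct4 line and 657 and 643 without Dox and 49.5 and 51.5 with it in the Sox2 line. It fell in both, at a log2 change of −4.35 (standard error 0.098, adjusted p 2.8e-15 in limma) and −3.66 (standard error 0.098, adjusted p 5.3e-14 in limma). In the Nanog line it had 168 and 172 without Dox and 299 and 282 with it, a rise short of the threshold. Ccn1 stayed inside the threshold in all 3, with −0.86, −0.51 and 0.63. Asap1 rose in the Oct4 and Sox2 lines, by 1.04 and 1.04, and Axl was lower in the Sox2 line at −2.07. Of the 6 kinase core genes and the 10 upstream genes 0 were called with Dox in any line by limma, edgeR or DESeq2, at the threshold of 1. The kinase core had medians of 0.45, 0.36 and 0.027 in the Oct4, Sox2 and Nanog lines. The upstream genes had −0.11, 0.32 and −0.034, beside 0 over all genes in each line. At an unadjusted limma p under 0.05, 6, 6 and 2 of the kinase core and 7, 6 and 5 of the upstream genes passed in the Oct4, Sox2 and Nanog lines. Among the 8 YAP regulators, Limd1, a LIM protein that restrains Lats kinases, rose in the Oct4 and Sox2 lines, by 2.09 and 2.22, and Amot rose by 1.51 and 1.18. In the Oct4 line Amotl1, Tnks and Ptpn14 fell, at −1.57, −1.40 and −1.11. Vgll1, another Tead cofactor, rose, from means of 11.6 to 349.6 in the Oct4 line and from 10.8 to 192 in the Sox2 line. In the Nanog line it stayed near the floor, with 0 and 1.02 without Dox and 7.03 and 2.25 with it, and was called higher by limma and edgeR but not by DESeq2.

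**Figure D3:**
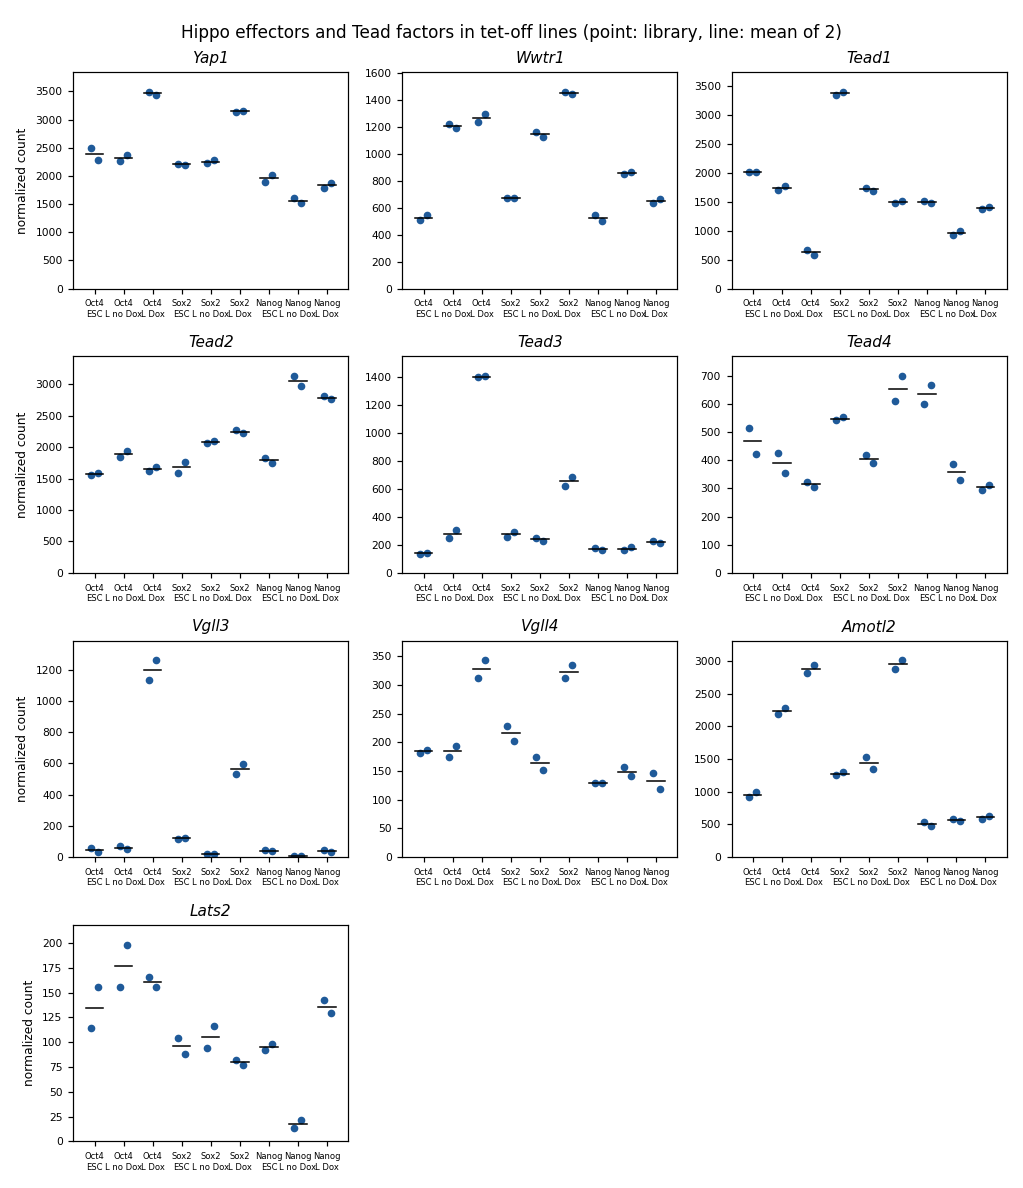
Normalized counts of the 10 genes in the 18 tet-off libraries, by line and state on the x axis (L no Dox and L Dox are L-EPSCs); points are libraries, lines are means of 2 and each y axis starts at 0. Vgll3 and Tead3 were highest in Oct4-line L-EPSCs with Dox, where Tead1 was lowest.

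The effects were compared between lines with interaction terms. For the change from ESCs to L-EPSCs, 4 of the 10 differed between the Oct4 and Sox2 lines (against 10.0% of all genes), 4 between the Oct4 and Nanog lines (14.7%) and 2 between the Sox2 and Nanog lines (14.8%). For Dox, 2 differed between the Oct4 and Sox2 lines (6.81%), 5 between the Oct4 and Nanog lines (14.8%) and 4 between the Sox2 and Nanog lines (11.3%). Tead1 fell further with Dox in the Oct4 than in the Sox2 line, with a log2 difference of −1.27 (standard error 0.074, adjusted p 2.3e-09 in limma). For the Vgll3 rise, the Oct4 line minus the Sox2 line gave −0.45 (standard error 0.36, adjusted p 0.45 in limma), which was not called. With single libraries left out this difference ranged from −0.69 to −0.20. For Lats2, Dox in the Nanog line differed from Dox in the Oct4 line with a log2 difference of −3.03 (standard error 0.30, adjusted p 4.6e-07 in limma), the Oct4 line minus the Nanog line. For Amotl2, the Oct4 line minus the Sox2 line gave 1.05 for the change from ESCs to L-EPSCs and −0.67 for Dox, the latter inside the threshold. For Wwtr1 and the change from ESCs to L-EPSCs, the 3 differences were 0.43, 0.47 and 0.044. For Tead2 they were −0.052, −0.51 and −0.46, and for Tead4 0.18, 0.56 and 0.39, and all of these were inside the threshold.

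Levels were compared between genes as normalized counts per kilobase of exon, within a group, as mean ± SD (n = 2). In J1 ESCs, Tead2 was highest of the 10 with 472 ± 8.24, followed by Yap1 with 285 ± 2.08 and Amotl2 with 273 ± 0.720, and Tead3 was lowest with 32.2 ± 0.151. No neighbours in this order overlapped. In Oct4-line L-EPSCs without Dox the order opened with Tead2 at 404 ± 13.1 and closed with Vgll3 at 18.3 ± 4.40, where Lats2 overlapped with Vgll3, and Wwtr1 with Yap1. With Dox, Amotl2 was first at 457 ± 12.7, and Yap1, Vgll3 and Tead2 followed at 374 ± 4.20, 359.8 ± 27.0 and 353 ± 10.3, where Yap1 and Vgll3 overlapped, as did Vgll3 and Tead2. Tead3 came next at 319.6 ± 1.33, and Tead1 stood at 55.8 ± 4.94.

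The genes with the most similar pattern over the 18 tet-off libraries, by Pearson's r on log2(normalized count + 1) among 10030 genes with a mean of at least 100, were as follows. The libraries of a group share their line and state, so r is a description. For Yap1 they were Gas2l1 (0.966), Slco2a1 (0.963), Fam120a (0.960), and for Wwtr1 Ostf1 (0.985), Rab5b (0.981), Rell1 (0.979). For Tead1 they were Rbpms2 (0.957), Brwd1 (0.929), Mycl (0.927), and for Tead3 Ldoc1 (0.982), Lgals1 (0.981), Tfg (0.976). For Vgll3 they were Slc35f6 (0.967), Stx4a (0.957), Cln3 (0.955), and for Amotl2 Dab2 (0.978), Pdcd6ip (0.977), Kank1 (0.976). Tead2 had Dcaf15 (0.967), Adipor2 (0.955), Zfp523 (0.955), Vgll4 had Gprc5c (0.984), Csrnp1 (0.951), Pard6g (0.949) and Tead4 had Garre1 (0.895), Wdfy3 (0.887), Znrf3 (0.884). Lats2 had the lowest values, with Arfgap1 (0.858), Sarm1 (0.814), Tlk2 (0.789).

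On NCBIM37 the annotation places Yap1 (ENSMUSG00000053110) on chromosome 9 from 7931999 to 8004596, Wwtr1 (ENSMUSG00000027803) on chromosome 3 from 57259571 to 57379832, Tead1 (ENSMUSG00000055320) on chromosome 7 from 119822832 to 120050319 and Tead2 (ENSMUSG00000030796) on chromosome 7 from 52471123 to 52489005. It places Tead3 (ENSMUSG00000002249) on chromosome 17 from 28468616 to 28487750, Tead4 (ENSMUSG00000030353) on chromosome 6 from 128174306 to 128250841 and Vgll3 (ENSMUSG00000091243) on chromosome 16 from 65815878 to 65863302. It places Vgll4 (ENSMUSG00000030315) on chromosome 6 from 114810646 to 114920012, Amotl2 (ENSMUSG00000032531) on chromosome 9 from 102619002 to 102635748 and Lats2 (ENSMUSG00000021959) on chromosome 14 from 58260914 to 58377225. Tead1 and Tead2 share a chromosome, as do Tead4 and Vgll4, and Yap1 and Amotl2.

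Promoter windows of 300 bases around the gene start were taken from RefSeq (GRCm38.p6) and searched on both strands for GGAATG, the core letters that Tead factors recognise. Of the 10 genes, 8 had a window, and 7 of these held the letters (Yap1, Wwtr1, Tead3, Vgll3, Vgll4, Amotl2 and Lats2), while Tead2 did not. The letters were in 16.6% of the 27025 genes with a window, counting any window of a gene, and in 14.7% of the 32851 windows. Tead3, Wwtr1 and Lats2 have more than 1 window. The 3 windows of Tead3 hold 1, 3 and 0 matches, and the one with the most is shown. Of the 20 YAP/TAZ targets, 13 had a window and 5 held the letters. A match is a description and not a site. Windows of Vgll3, Tead3, Amotl2 and Wwtr1, each called in at least 1 comparison above, are shown 5′ to 3′ on the strand of the gene, with GGAATG or its reverse complement CATTCC in capitals.
Vgll3, chr16:65814939-65815238, plus strand: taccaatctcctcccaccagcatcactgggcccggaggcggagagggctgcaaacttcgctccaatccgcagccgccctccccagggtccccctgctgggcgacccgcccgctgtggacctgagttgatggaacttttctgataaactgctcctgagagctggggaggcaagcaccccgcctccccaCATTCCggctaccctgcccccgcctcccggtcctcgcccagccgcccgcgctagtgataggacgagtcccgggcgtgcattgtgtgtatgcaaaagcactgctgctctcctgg
Tead3, chr17:28350551-28350850, minus strand: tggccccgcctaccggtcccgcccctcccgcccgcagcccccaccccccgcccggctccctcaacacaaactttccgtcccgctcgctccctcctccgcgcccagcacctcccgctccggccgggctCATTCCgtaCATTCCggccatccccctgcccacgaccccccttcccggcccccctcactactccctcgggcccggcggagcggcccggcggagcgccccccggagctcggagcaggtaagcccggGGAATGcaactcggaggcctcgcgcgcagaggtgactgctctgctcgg
Amotl2, chr9:102717554-102717853, plus strand: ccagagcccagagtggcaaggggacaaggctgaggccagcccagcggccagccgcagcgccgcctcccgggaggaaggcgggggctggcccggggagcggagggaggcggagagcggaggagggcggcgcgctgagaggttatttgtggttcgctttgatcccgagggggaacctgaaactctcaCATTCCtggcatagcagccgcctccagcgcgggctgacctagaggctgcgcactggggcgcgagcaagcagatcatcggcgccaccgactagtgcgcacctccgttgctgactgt
Wwtr1, chr3:57575861-57576160, minus strand: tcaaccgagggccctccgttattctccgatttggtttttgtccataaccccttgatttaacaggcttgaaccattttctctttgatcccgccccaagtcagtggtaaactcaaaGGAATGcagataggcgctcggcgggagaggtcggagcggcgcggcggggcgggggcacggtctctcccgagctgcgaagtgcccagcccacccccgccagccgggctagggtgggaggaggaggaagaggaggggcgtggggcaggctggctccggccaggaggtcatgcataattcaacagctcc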

How the data were processed

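Poly(A) RNA of 24 libraries was taken from 2 tables. Per the submitters' processing notes, the authors trimmed reads with Trim Galore 0.6.4, aligned them to NCBIM37 with STAR 2.7.9a, counted them with HTSeq 0.11.2 and normalized them with DESeq2 (given as 4.1.1). The deposited signal is the gene count divided by a size factor of the library: 99.997% of the J1 values above 0 and 100% of the tet-off values lay within 0.01 of a whole multiple of a library's single-read value, from which reads were recovered. The strand setting is not given in the sources used here. Limma 3.58.1 (trend) in R 4.3.3 was fitted to log2 values (1 added to each normalized count) of every group in a table, over genes with at least 2 reads in total, with Benjamini-Hochberg adjustment over all genes tested. It was tested on simulated data. Alternatives were edgeR 4.0.16 and DESeq2 1.42.0 (on recovered reads), median centring, TMM scaling, keeping genes with a mean of 10 or more, fits of only the groups compared, a pseudocount of 0.1, the other threshold, a replicate block and leaving out each replicate. Positions follow the NCBIM37 annotation by gene ID. The plan allowed for raw counts, and its branch for normalized values was used. All 10 members, the targeted genes and fixed lists are named, with list examples being the called genes of largest fold change (up to 3 each way) plus Ccn2 and Ccn1, not all of which are printed. The members and lists were chosen with earlier results of these data known.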

Additional observations from a re-analysis of the deposited data

Results flagged for a closer look

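The log2 effects of these genes differed between tet-off lines by an interaction term past the threshold, and each value is the effect in the first line minus that in the second, with 2 libraries in each group. For the change from ESCs to L-EPSCs, Oct4 minus Sox2, the differences were Tead1 0.76 (adjusted p 1.6e-06 in limma), Tead3 1.18 (adjusted p 3.9e-05 in limma), Vgll3 2.92 (adjusted p 2e-05 in limma) and Amotl2 1.05 (adjusted p 1.1e-06 in limma). For the change from ESCs to L-EPSCs, Oct4 minus Nanog, the differences were Tead3 0.96 (adjusted p 0.00021 in limma), Vgll3 2.89 (adjusted p 1.5e-05 in limma), Amotl2 1.05 (adjusted p 6.5e-07 in limma) and Lats2 2.80 (adjusted p 2.3e-06 in limma). For the change from ESCs to L-EPSCs, Sox2 minus Nanog, the differences were Vgll4 −0.61 (adjusted p 0.014 in limma) and Lats2 2.53 (adjusted p 7.9e-06 in limma). For Dox, Oct4 minus Sox2, the differences were Tead1 −1.27 (adjusted p 2.3e-09 in limma) and Tead4 −1.0029 (adjusted p 0.00012 in limma). For Dox, Oct4 minus Nanog, the differences were Tead1 −2.01 (adjusted p 3e-12 in limma), Tead3 1.96 (adjusted p 4.4e-08 in limma), Vgll3 1.83 (adjusted p 0.00079 in limma), Vgll4 1.0004 (adjusted p 0.00019 in limma) and Lats2 −3.03 (adjusted p 4.6e-07 in limma). For Dox, Sox2 minus Nanog, the differences were Tead3 1.08 (adjusted p 5e-05 in limma), Vgll3 2.28 (adjusted p 0.00013 in limma), Vgll4 1.16 (adjusted p 5.5e-05 in limma) and Lats2 −3.30 (adjusted p 2.4e-07 in limma). Tead4, not called above, was called (conversion, Oct4 line minus Nanog line) at 0.70 without Oct4 ESC replicate 1, 0.69 without Oct4 L-EPSC no-Dox replicate 2, 0.64 without Nanog ESC replicate 1 and 0.68 without Nanog L-EPSC no-Dox replicate 1. Vgll4 was no longer called (conversion, Sox2 line minus Nanog line) at −0.57 with median centring, −0.52 without Sox2 ESC replicate 1, −0.50 without Sox2 L-EPSC no-Dox replicate 2 and −0.53 without Nanog L-EPSC no-Dox replicate 1. Tead4 was no longer called (Dox, Oct4 line minus Sox2 line) at −0.99 with TMM scaling, −0.86 with median centring, −0.95 without Sox2 L-EPSC no-Dox replicate 2, −0.91 without Sox2 L-EPSC Dox replicate 2, −0.87 without Oct4 L-EPSC no-Dox replicate 1 and −0.96 without Oct4 L-EPSC Dox replicate 2. Tead3, not called above, was called (Dox, Oct4 line minus Sox2 line) at 1.03 with median centring and 1.05 without Oct4 L-EPSC no-Dox replicate 2. Vgll4 was no longer called (Dox, Oct4 line minus Nanog line) at 0.99 with edgeR on recovered reads, 0.99 with DESeq2 on recovered reads, 0.93 without Oct4 L-EPSC no-Dox replicate 1, 0.93 without Oct4 L-EPSC Dox replicate 2, 0.92 without Nanog L-EPSC no-Dox replicate 1 and 0.86 without Nanog L-EPSC Dox replicate 2. Tead4, not called above, was called (Dox, Sox2 line minus Nanog line) at 1.07 with median centring, 1.02 without Sox2 L-EPSC Dox replicate 1 and 1.03 without Nanog L-EPSC no-Dox replicate 2. Amotl2, not called above, was called (Dox, Sox2 line minus Nanog line) at 1.08 with median centring and 1.03 without Sox2 L-EPSC no-Dox replicate 1. Tead3 was no longer called (Dox, Sox2 line minus Nanog line) at 0.9996 without Sox2 L-EPSC no-Dox replicate 2 and 0.98 without Nanog L-EPSC no-Dox replicate 2. Conversion stands for the change from ESCs to L-EPSCs.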

How the results depend on the processing

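Of the 150 fold changes (10 genes in 15 comparisons), 54 were called, 34 of them under every alternative run, and 0 called value changed sign. Conversion stands for L-EPSCs against ESCs of a tet-off line. With median centring, genes of the 10 called became 1 (from 2; conversion, Sox2 line minus Nanog line), and uncalled values changed sign to −0.14 (Yap1, D-EPSC against ESC, J1), −0.11 (Tead2, D-EPSC against ESC, J1), 0.083 (Vgll4, L-EPSC against D-EPSC, J1), 0.19 (Yap1, conversion, Oct4 line), 0.0081 (Tead1, conversion, Oct4 line), 0.23 (Vgll4, conversion, Oct4 line), 0.049 (Tead3, conversion, Sox2 line), 0.055 (Lats2, Dox, Oct4 line), −0.0094 (Amotl2, Dox, Nanog line), 0.0093 (Vgll3, conversion, Sox2 line minus Nanog line), 0.23 (Tead2, Dox, Oct4 line minus Nanog line) and 0.21 (Tead4, Dox, Oct4 line minus Nanog line). With the other fold change threshold, all genes called became 2899 (from 4380; L-EPSC against ESC, J1), 1836 (from 2881; L-EPSC against D-EPSC, J1), 4466 (from 6822; conversion, Oct4 line), 2990 (from 4713; conversion, Sox2 line), 4196 (from 6457; conversion, Nanog line), 5568 (from 3628; Dox, Sox2 line), 2386 (from 1293; Dox, Nanog line), 1286 (from 2403; conversion, Oct4 line minus Sox2 line), 2059 (from 3536; conversion, Oct4 line minus Nanog line), 2199 (from 3551; conversion, Sox2 line minus Nanog line), 3097 (from 1635; Dox, Oct4 line minus Sox2 line), 5414 (from 3545; Dox, Oct4 line minus Nanog line) and 4383 (from 2714; Dox, Sox2 line minus Nanog line), and genes of the 10 called became 2 (from 4; D-EPSC against ESC, J1), 1 (from 3; conversion, Sox2 line), 2 (from 6; conversion, Nanog line), 5 (from 3; Dox, Sox2 line), 1 (from 2; conversion, Sox2 line minus Nanog line), 4 (from 2; Dox, Oct4 line minus Sox2 line) and 8 (from 4; Dox, Sox2 line minus Nanog line). With edgeR on recovered reads, uncalled values changed sign to 0.00037 (Vgll4, conversion, Oct4 line) and 0.058 (Vgll3, conversion, Sox2 line minus Nanog line). With DESeq2 on recovered reads, uncalled values changed sign to 0.00057 (Vgll4, conversion, Oct4 line) and 0.073 (Vgll3, conversion, Sox2 line minus Nanog line). With TMM scaling, genes of the 10 called became 1 (from 2; Dox, Oct4 line minus Sox2 line), and uncalled values changed sign to 0.023 (Vgll4, conversion, Oct4 line) and −0.011 (Amotl2, conversion, Sox2 line minus Nanog line). With only the groups compared, all genes called became 479 (from 1293; Dox, Nanog line), and genes of the 10 called became 1 (from 2; Dox, Nanog line). With a pseudocount of 0.1, uncalled values changed sign to 0.077 (Vgll3, conversion, Sox2 line minus Nanog line). Without each replicate in turn, all genes called ranged from 1913 to 2104 (L-EPSC against D-EPSC, J1), genes of the 10 called ranged from 1 to 2 (conversion, Sox2 line minus Nanog line) and genes of the 10 called ranged from 1 to 3 (Dox, Oct4 line minus Sox2 line). Uncalled values that changed sign ranged from −0.016 to 0.021 (Yap1, D-EPSC against ESC, J1), from −0.11 to 0.023 (Yap1, conversion, Oct4 line), from −0.076 to 0.074 (Vgll4, conversion, Oct4 line), from −0.029 to 0.28 (Lats2, conversion, Sox2 line), from −0.071 to 0.11 (Tead3, conversion, Nanog line), from −0.30 to 0.048 (Lats2, Dox, Oct4 line), from −0.13 to 0.025 (Tead2, conversion, Oct4 line minus Sox2 line), from −0.013 to 0.10 (Wwtr1, conversion, Sox2 line minus Nanog line), from −0.29 to 0.24 (Vgll3, conversion, Sox2 line minus Nanog line), from −0.10 to 0.10 (Amotl2, conversion, Sox2 line minus Nanog line) and from −0.21 to 0.047 (Tead4, Dox, Oct4 line minus Nanog line). A lone replicate was assumed to vary like the other groups. Median centring moved the median of all genes to between −0.13 and 0.30 on the log2 scale, and its calls were 1916 higher and 2775 lower (from 2316 and 2150; D-EPSC against ESC, J1), 2073 higher and 1334 lower (from 1033 and 1848; L-EPSC against D-EPSC, J1), 4612 higher and 2622 lower (from 3118 and 3704; conversion, Oct4 line), 3653 higher and 1879 lower (from 1918 and 2795; conversion, Sox2 line), 4196 higher and 2588 lower (from 2928 and 3529; conversion, Nanog line), 2713 higher and 2098 lower (from 2047 and 2590; Dox, Oct4 line), 534 higher and 803 lower (from 672 and 621; Dox, Nanog line), 753 higher and 849 lower (from 510 and 1125; Dox, Oct4 line minus Sox2 line), 2484 higher and 1432 lower (from 1482 and 2063; Dox, Oct4 line minus Nanog line) and 1735 higher and 1108 lower (from 1337 and 1377; Dox, Sox2 line minus Nanog line). For D-EPSC against ESC in J1, limma called 4466 genes, edgeR 4493 and DESeq2 4042. The replicate numbers only name libraries: deviations of same-numbered libraries correlated between −0.028 and 0.04 across genes. With the replicate block, all genes called were 4349 (D-EPSC against ESC, J1), 4257 (L-EPSC against ESC, J1), 2789 (L-EPSC against D-EPSC, J1), 6816 (conversion, Oct4 line), 4726 (conversion, Sox2 line), 6436 (conversion, Nanog line), 4660 (Dox, Oct4 line), 3594 (Dox, Sox2 line) and 1285 (Dox, Nanog line), and no call of the 10 changed. The causes were not tested, apart from thresholds and smaller fits, which change what is called by construction.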
